A study of Mus musculus with 32 samples.

Results

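The mouse mitochondrial genome carries 37 genes, and all 37 were found among the 51826 genes of the count table. They were taken as every row annotated to the mitochondrial chromosome (chrM): 2 ribosomal RNA (rRNA) genes, 22 transfer RNA (tRNA) genes and 13 genes for subunits of the respiratory chain. The counts came from 32 RNA-seq libraries of mouse embryonic stem (ES) cells in 11 conditions, with 3 libraries per condition except 2 for Etv5-KO at N16h. The methods of the study name RGd2 N16h as the group short of a library, whereas the labels give Etv5-KO N16h, and the labels were followed. All lines derive from RGd2, ES cells with a destabilised GFP at the Rex1 locus as a reporter of the naive state, and RGd2 without a further deletion was the control. 2i is N2B27 medium with CHIR99021 (CH, a GSK3 inhibitor) and PD0325901 (a MEK inhibitor), which holds ES cells in the naive state. RGd2 cells were sampled in 2i, after 16 h in N2B27 alone (N16h), at passage 5 in 2i (2i-p5), after 72 h in N2B27 alone (N72h) and at passage 2 in CH alone (CH-p2). Rbpj-KO cells, which lack the DNA-binding factor of the Notch pathway, and Etv5-KO cells, which lack an ETS transcription factor, were sampled in 2i and at N16h. ER-dKO cells lack Etv5 and Rbpj and were sampled at passage 5 in CH alone. ETR-tKO cells lack Etv5, Rbpj and Tcf3 (gene symbol Tcf7l1) and were sampled at passage 5 in N2B27 alone. Within a condition each mutant library came from another clonal line, whereas 2 of the 3 RGd2 libraries came from the parental culture and 1 from a clonal derivative, so p-values measure the spread between these samples. In the labels 2 of the 3 ETR-tKO lines share the prefix Tc1 and the third has ETc1, so these lines may not be fully independent. The RGd2, Rbpj-KO and Etv5-KO cells in 2i and at N16h had been expanded in CH with LIF and then held in 2i for 48 h, and the other groups had not. ER-dKO and ETR-tKO were compared with RGd2 at 2i-p5, so genotype and medium cannot be told apart in those comparisons.

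The mitochondrial genome is transcribed in both directions into long precursor RNAs. tRNAs lie between most of the other genes, and their excision frees the rRNAs and mRNAs. One precursor holds both rRNAs, most tRNAs and all mRNAs but one, and the opposite precursor holds mt-Nd6 and the remaining tRNAs. Among the 37 genes, 28 were coded in the first direction and 9, namely 8 tRNA genes and mt-Nd6, in the other. mt-Nd1 to mt-Nd6 and mt-Nd4l code for subunits of complex I, mt-Cytb for a subunit of complex III, mt-Co1 to mt-Co3 for the core of complex IV, and mt-Atp6 and mt-Atp8 for parts of the ATP synthase. Nuclear genes supply the other subunits and the machinery of mitochondrial transcription and RNA turnover.

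A nuclear copy of mitochondrial DNA bears on which members could be counted. On chromosome 1 (chr1:24611535-24616197, minus strand, GRCm38), 7 annotated pseudogenes copy chrM:6381-11042 of the plus strand, from inside mt-Co1 to inside mt-Nd4. In the Gencode transcripts, Gm28661 (copy of mt-Co2), Gm10925 (mt-Atp6), Gm28437 (mt-Co3), Gm10222 (mt-Nd4l) and Gm28439 (876 bases of mt-Nd4) had 0 differences from the mitochondrial gene over the aligned bases. Gm28438 had 1 difference from mt-Nd3 over 345 bases, and Gm29216 differed from mt-Co1 at 6 of 492 bases. The start of Gm29216 (chr1:24616138-24616197, minus strand) is set beside mt-Co1 (chrM:6381-6440, plus strand) and the start of Gm28438 (chr1:24613060-24613119, minus strand) beside mt-Nd3 (chrM:9459-9518, plus strand), since these stretches hold all the differences; differing bases are in capitals. mt-Nd4l (chrM:9877-10170, plus strand) is shown for the 294 bases that are the same in Gm10222.
mt-Co1: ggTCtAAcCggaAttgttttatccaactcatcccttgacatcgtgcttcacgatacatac
Gm29216: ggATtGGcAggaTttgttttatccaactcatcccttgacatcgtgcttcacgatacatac
mt-Nd3: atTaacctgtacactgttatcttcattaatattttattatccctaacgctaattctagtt
Gm28438: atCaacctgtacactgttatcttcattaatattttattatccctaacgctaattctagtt
mt-Nd4l: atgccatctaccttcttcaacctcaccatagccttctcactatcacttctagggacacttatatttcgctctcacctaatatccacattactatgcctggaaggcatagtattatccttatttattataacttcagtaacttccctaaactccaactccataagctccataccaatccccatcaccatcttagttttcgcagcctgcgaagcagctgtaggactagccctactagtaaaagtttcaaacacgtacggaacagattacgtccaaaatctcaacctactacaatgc
Counted from 1 at the first base of the mitochondrial gene, the changes from mt-Co1 to its copy were T1056A, C1057T, A1059G, A1060G, C1062A and A1066T, and the change from mt-Nd3 was T3C.

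The authors kept only reads with a unique match, and most members inside the copied stretch were almost without counts. Over all 32 libraries mt-Co2 had 575 counts, mt-Co3 424, mt-Nd3 320 and mt-Nd4l 129, against 7995335 for mt-Co1 and 1681979 for mt-Nd1. Of the windows of 50 bases in mt-Co2, 100% occurred in a nuclear transcript, and the share was 99.9% in mt-Co3, 98% in mt-Nd3 and 98.8% in mt-Nd4l. In mt-Nd4 and mt-Co1, which reach out of the stretch, it was 62.2% and 51.1%, with 502 and 1053 bases outside. The windows of mt-Co1 were shared with Gm11512 and Gm13340 as well as with Gm29216, so shared windows of this gene also lie outside the stretch. mt-Atp8 and mt-Atp6 lie inside the stretch and still had 121230 and 68212 counts. No annotated nuclear transcript shared a window with mt-Atp8, whereas 99.5% of the windows of mt-Atp6 were shared. The 6 protein genes inside the stretch and parts of mt-Co1 and mt-Nd4 are therefore uncertain, and only annotated transcripts were searched, not the genome. The 7 pseudogenes together held 2.31 to 18.4 CPM (gene counts scaled to the same sum in every library). The highest value was in RGd2 2i replicate 33, the shallowest library, in which mt-Co2, mt-Co3, mt-Nd3 and mt-Nd4l together also reached their highest level, 5.85 CPM.

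The tRNA genes were thinly counted as well. mt-Ts1, mt-Tk, mt-Tg and mt-Tr, all inside the copied stretch, had 0 counts in all 32 libraries, and mt-Td, the other tRNA gene inside it, had 1. Outside it, mt-Tf, mt-Th and mt-Ts2 had 3, 2 and 9 counts in all, mt-Tv, mt-Tn and mt-Tc had 33, 35 and 34, and mt-Tl2 and mt-Ti 93 and 123. Of the tested tRNA genes, mt-Tw, mt-Tq, mt-Tl1, mt-Tp, mt-Ta and mt-Tm had 3829, 3009, 2199, 1632, 897 and 711 and mt-Tt, mt-Te and mt-Ty 214, 173 and 133. After the filter on low counts 24 of the 37 genes entered the test: both rRNA genes, all 13 protein genes and 9 tRNA genes. On the share scale defined below it was also 24, with mt-Ti in place of mt-Nd4l. For the 13 tRNA genes not tested, differences were not detectable with these counts, and mt-Co2, mt-Co3, mt-Nd3 and mt-Nd4l were called in no comparison below.

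The libraries held 5986857 to 71439411 gene counts (median 29940141), and the ERCC spike-in RNAs made up 0.991% to 1.52% of all counts. Each member was read on 2 scales. The spike-in scale divides counts by a factor from the 52 spike-ins above 0 in every library, and a level on it is called a normalised count. The share scale divides by the total gene count, and a level on it is given in CPM, which scales the gene counts of every library to the same sum; a reading on it is also called by share. Whether spike-ins were dosed per cell or per amount of RNA is not given in the sources used here, and in bulk samples fewer cells of a type and less RNA per cell cannot be told apart. Ribosomal RNA had been depleted with capture probes, so an rRNA level is what was left after depletion, and the part of depletion in the rRNA differences was not tested. The labels name the molecule polyA RNA, while the protocol describes total RNA with rRNA depletion.

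The labels were checked against the deleted genes and markers of cell state. Etv5 stood at 135 ± 18.7 FPKM (mean ± SD, n = 3; fragments per kilobase, scaled to library size) in RGd2 2i and at 21.6 ± 2.39 in Etv5-KO 2i. At N16h it stood at 125 ± 2.12 FPKM in RGd2 (n = 3) and at 26.7 ± 5.62 in Etv5-KO (n = 2). Rbpj stood at 40.5 ± 0.543 FPKM in RGd2 N16h and at 8.04 ± 0.442 in Rbpj-KO N16h, and Tcf7l1 at 5.74 ± 0.555 in RGd2 2i-p5 and at 0.795 ± 0.437 in ETR-tKO. Of 6 naive markers 5 fell in RGd2 at N16h and 6 at N72h, and all 5 formative markers rose at N16h. Of 3 general pluripotency markers, 2 fell at N16h and 1 at N72h. Of 5 mesendoderm markers, 2 fell at N16h, and 2 rose and 2 fell at N72h. Of 3 neural markers, 2 rose and 1 fell at N16h and 1 rose at N72h. In ER-dKO and ETR-tKO 4 and 4 of the naive markers were higher than at 2i-p5. For comparison, 23.2% of all genes tested fell and 5.37% rose at N16h on the spike-in scale, and 14.8% fell and 22.2% rose at N72h. In ER-dKO and ETR-tKO 20.8% and 23.6% of all genes rose on that scale. The part of cell state in the mitochondrial differences was not tested. A pair of RGd2 2i libraries stood apart. Replicate 33 had 5986857 gene counts against 37042477 and 36086319 in the others, and replicate 31 had the lowest spike-in share of all, 0.991%. For some of the results that rest on either, values without it are given.

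Mitochondrial RNA took a large share of every library, and most of it was mt-Rnr2 (chrM:1094-2675, plus strand), the 16S rRNA of the large mitoribosomal subunit. The 37 genes together held 11.2% to 18.7% of the gene counts. The 2 rRNAs held 9.94% to 17%, the 13 protein genes 0.828% to 1.81% and all tRNA genes 0.000567% to 0.00271%. Per length, the medians over the 32 libraries were 75080 FPKM for mt-Rnr2 and 10455 for mt-Rnr1 (chrM:70-1024, plus strand), the 12S rRNA of the small subunit. Among the mRNAs they were 5415 FPKM for mt-Co1, 1929 for mt-Nd1, 947 for mt-Nd2, 734 for mt-Cytb, 672 for mt-Nd5, 364 for mt-Nd6 and 248 for mt-Nd4. Among these 9 genes, per full length, mt-Rnr2, mt-Rnr1, mt-Co1 and mt-Nd1 took the first places in this order in all 32 libraries. Below them the order changed between libraries: mt-Nd2 took place 5 or 6, mt-Nd5 places 5 to 7, mt-Cytb 6 to 8, mt-Nd6 7 to 9 and mt-Nd4 8 or 9. Parts of mt-Co1 and mt-Nd4 lie in the copied stretch, so their levels per full length may be too low. Divided by the bases outside it, their medians were 7945 and 680 FPKM. There mt-Co1 took place 2 or 3 and mt-Nd4 places 6 to 9. mt-Atp8 and mt-Atp6, which overlap by 43 bases, stood at 594 and 101 FPKM.

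**Figure D1:**
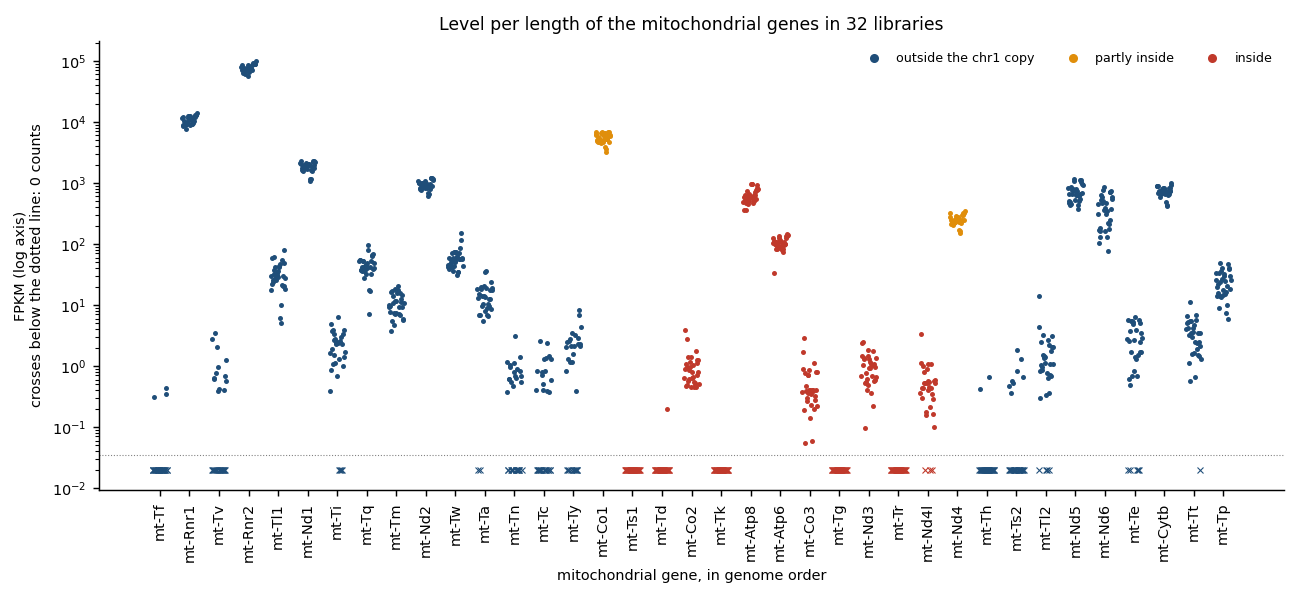
Level per length (FPKM, log axis) of the 37 mitochondrial genes in genome order, with 1 point per library for the 32 libraries. Blue genes lie outside the chromosome 1 copy, orange genes partly and red genes fully inside it, and crosses mark libraries with 0 counts. mt-Rnr2 lies highest, and the red genes other than mt-Atp8 and mt-Atp6 lie near the bottom.

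mt-Nd6, the only mRNA of the opposite strand, was spread more widely than the other mRNAs outside the stretch. It ranged from 39.2 to 444 CPM, against 684 to 2140 for mt-Nd5, 472 to 1128 for mt-Cytb and 5061 to 10746 for mt-Co1. mt-Co1 alone made up 54.8% to 67.2% of the counts on protein genes.

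The summed mRNA was lower in RGd2 after release from 2i, and the rRNA sum did not separate the groups with all libraries in. The 13 protein genes held 1.59%, 1.71% and 1.53% of gene counts in the 2i libraries and 1.24%, 1.22% and 1.23% at N16h, means of 1.61% ± 0.0879 and 1.23% ± 0.00861 (SD, n = 3). They held 1.57%, 1.49% and 1.6% at 2i-p5 and 0.951%, 0.828% and 0.934% at N72h, means of 1.55% ± 0.0589 and 0.905% ± 0.0666. In both pairs every library in N2B27 lay below every library in 2i. Per spike-in count the mRNA sum was 1.36 ± 0.256 in 2i and 0.887 ± 0.0337 at N16h, and 1.04 ± 0.0255 at 2i-p5 and 0.633 ± 0.0312 at N72h, again without overlap. The rRNAs held 12.9% ± 0.828 at 2i-p5 and 12.5% ± 0.362 at N72h, with overlapping libraries. The mRNA part of all mitochondrial counts went from 10.7% ± 0.531 to 6.73% ± 0.602. As run here, the two-sided exact permutation test cannot give a p under 0.1 with 3 libraries against 3, or under 0.2 with 3 against 2. No sum could therefore pass the threshold. For the mRNA share the exact permutation p was 0.1 at N16h and 0.1 at N72h (0.171 for both after Benjamini-Hochberg adjustment over 12 comparisons).

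The total was higher in CH-p2, ER-dKO and ETR-tKO than at 2i-p5. The total share was 14.5% ± 0.861 at 2i-p5, 16.3% ± 0.611 in CH-p2, 17.2% ± 0.394 in ER-dKO and 17.4% ± 1.09 in ETR-tKO, and none of the 3 groups overlapped the libraries at 2i-p5, which stood at 13.8%, 14.2% and 15.4% (exact permutation p = 0.1 each, adjusted p = 0.3). Per spike-in count the totals were 9.73 at 2i-p5 and 12, 13.8 and 13.8 in the others, without overlap (exact permutation p = 0.1 each, adjusted p = 0.4). The mRNA share took another course. It was 1.32% ± 0.0424 in CH-p2, below all 2i-p5 libraries, 1.76% ± 0.0458 in ER-dKO, above them, and 1.5% ± 0.207 in ETR-tKO, overlapping them.

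**Figure D2:**
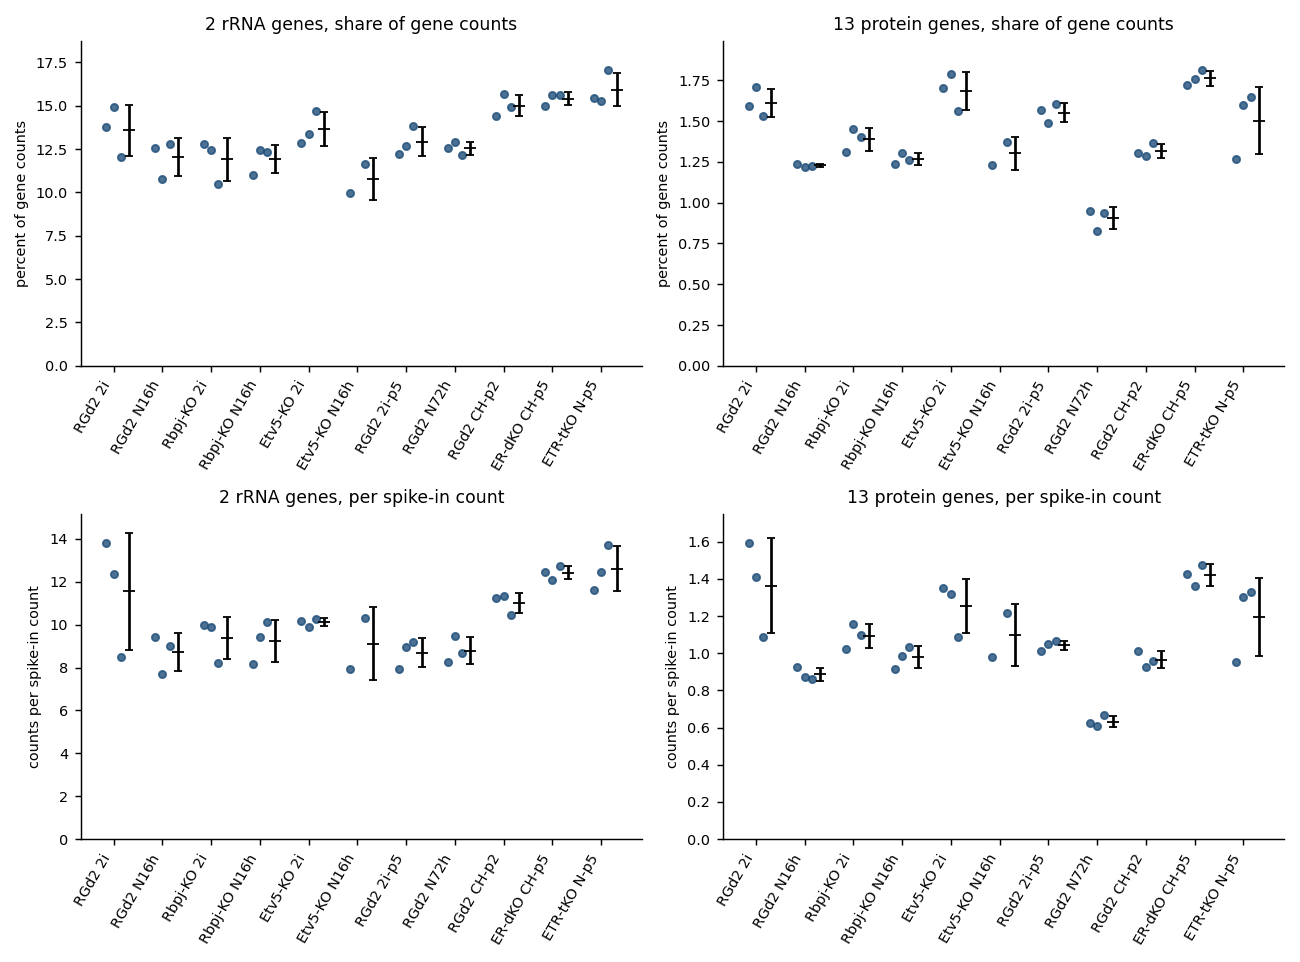
Summed counts of the 2 rRNA genes and the 13 protein genes by condition, as percent of gene counts (top) and per spike-in count (bottom), with 1 point per library and a bar at the mean with its SD. The mRNA share at N72h, with a mean of 0.905%, lies below every other condition.

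Comparisons below that name the same control group (RGd2 in 2i, at N16h or at 2i-p5) share its libraries. The first asks how mitochondrial transcripts differ 16 h after RGd2 cells leave 2i. Of the 24 genes tested, 11 fell on the spike-in scale (edgeR's quasi-likelihood test, Benjamini-Hochberg adjusted p under 0.05 and a mean of at least 1 FPKM in either group), where 23.2% of all genes tested fell. Those that fell were mt-Rnr1, mt-Rnr2, mt-Nd1, mt-Tq, mt-Nd2, mt-Co1, mt-Nd4, mt-Nd5, mt-Nd6, mt-Cytb and mt-Tp. The median log2 fold change was -0.53 over the 24 genes and -0.23 over all genes. On the share scale 6 fell, namely mt-Nd1, mt-Nd2, mt-Co1, mt-Nd4, mt-Nd5 and mt-Cytb, where 14.6% of all genes fell. Between the 2 scales the median of all genes differed by -0.23 (log2, spike-in minus share) in this comparison, and by -0.32 to 0.24 over all 12 comparisons between groups. The rRNA calls were made on the spike-in scale alone.

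mt-Co1 (chrM:5328-6872, plus strand) codes for the catalytic subunit of complex IV. Its normalised counts were 312110, 296242 and 238417 in 2i and 194864, 181342 and 173465 at N16h. The groups did not overlap, and the log2 change was -0.62 (SE 0.11, edgeR adjusted p = 1.54e-05) on the spike-in scale and -0.41 (SE 0.07, edgeR adjusted p = 1.75e-05) on the share scale. mt-Nd1 (chrM:2751-3707, plus strand), a core subunit of complex I, had 68695, 61325 and 48105 normalised counts in 2i and 39602, 40522 and 39291 at N16h, again without overlap, with log2 changes of -0.58 (SE 0.11) and -0.36 (SE 0.07) on the 2 scales. For mt-Cytb (chrM:14145-15288, plus strand), the mitochondrially coded subunit of complex III, they were 33730, 28173 and 24573 and then 19888, 20938 and 19447, also apart, with log2 changes of -0.52 (SE 0.11) and -0.30 (SE 0.08). The 3 mRNAs thus separated the groups, and mt-Rnr2 did not with all libraries in. It had 4214460, 3800000 and 2706000 normalised counts in 2i and 2944000, 2422130 and 2793450 at N16h. The overlap came from the last 2i value, that of replicate 33, and the other 2i values lay above all N16h values. The log2 change of mt-Rnr2 was -0.39 (SE 0.12, edgeR adjusted p = 0.0112) on the spike-in scale and -0.17 (SE 0.08, edgeR adjusted p = 0.0978) on the share scale. Without RGd2 2i replicate 31, 6 members were called on the spike-in scale, and both rRNAs, mt-Nd5, mt-Nd6, mt-Tq and mt-Tp were not among them. Without RGd2 N16h replicate 23 there were 7.

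mt-Atp8 and mt-Atp6, the ATP synthase genes of the copied stretch, did not pass the threshold at N16h. mt-Atp8 had 3336, 3312 and 1764 normalised counts in 2i and 2712, 3146 and 2292 at N16h. mt-Atp6 had 2327, 2355 and 549 and then 1900, 1662 and 1592. The last 2i value of each, the lowest of its group, was that of replicate 33. In both genes the other 2i values lay above all N16h values. With all libraries in, the log2 changes of mt-Atp8 and mt-Atp6 were -0.06 (SE 0.18) and -0.07 (SE 0.22) on the spike-in scale. On the share scale they were 0.16 (SE 0.18) and 0.17 (SE 0.20).

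At 72 h in N2B27 many mRNAs and some of the tested tRNAs were lower than at 2i-p5, and the rRNAs did not pass the test. The tRNAs mt-Tm, mt-Tt, mt-Te and mt-Ty and the mRNA mt-Atp6 did not pass either. Of 24 genes 13 fell on the spike-in scale (14.8% of all genes fell), and 13 fell on the share scale (18.4% of all genes). On the spike-in scale they were mt-Tl1, mt-Nd1, mt-Tq, mt-Nd2, mt-Tw, mt-Ta, mt-Co1, mt-Atp8, mt-Nd4, mt-Nd5, mt-Nd6, mt-Cytb and mt-Tp, and the same genes fell on the share scale. The median log2 fold change was -0.71 over the 24 genes, against 0.11 over all genes.

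mt-Co1 had 218503, 221787 and 235664 normalised counts at 2i-p5 and 131510, 126749 and 134436 at N72h, a log2 change of -0.78 (SE 0.11, edgeR adjusted p = 1.22e-07). mt-Nd1 had 42034, 44666 and 44471 and then 24833, 25803 and 25914, a log2 change of -0.78 (SE 0.11). In both genes the libraries of a group lay close together and far from the other group. mt-Atp8 fell by 0.87 (SE 0.18), mt-Cytb by 0.64, mt-Nd5 by 0.59, mt-Nd4 by 0.56 and mt-Nd2 by 0.38 on the log2 scale, and mt-Nd6 by 1.37 (SE 0.41). The rRNAs behaved differently. mt-Rnr2 had 2484740, 2808270 and 2920860 normalised counts at 2i-p5 and 2614740, 3009320 and 2669710 at N72h, and mt-Rnr1 had 183688, 243994 and 239463 and then 194840, 217938 and 215082. Both overlapped, with log2 changes of 0.01 (SE 0.12, edgeR adjusted p = 0.943) and -0.09 (SE 0.14, edgeR adjusted p = 0.629). With the summed counts of the 13 protein genes as library size, that is within the mitochondrial mRNA, mt-Rnr1 and mt-Rnr2 were higher at N72h by 0.65 and 0.75, mt-Nd2 by 0.35 and mt-Atp6 by 0.47 (log2), and mt-Co1, mt-Nd1 and mt-Cytb lay within 0.1 of 0. mt-Co1 alone made up 63.5% of that sum at 2i-p5 and 61.2% at N72h, so its value near 0 is in large part set by the scale. On that scale 49.2% of all genes tested were higher at N72h.

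**Figure D3:**
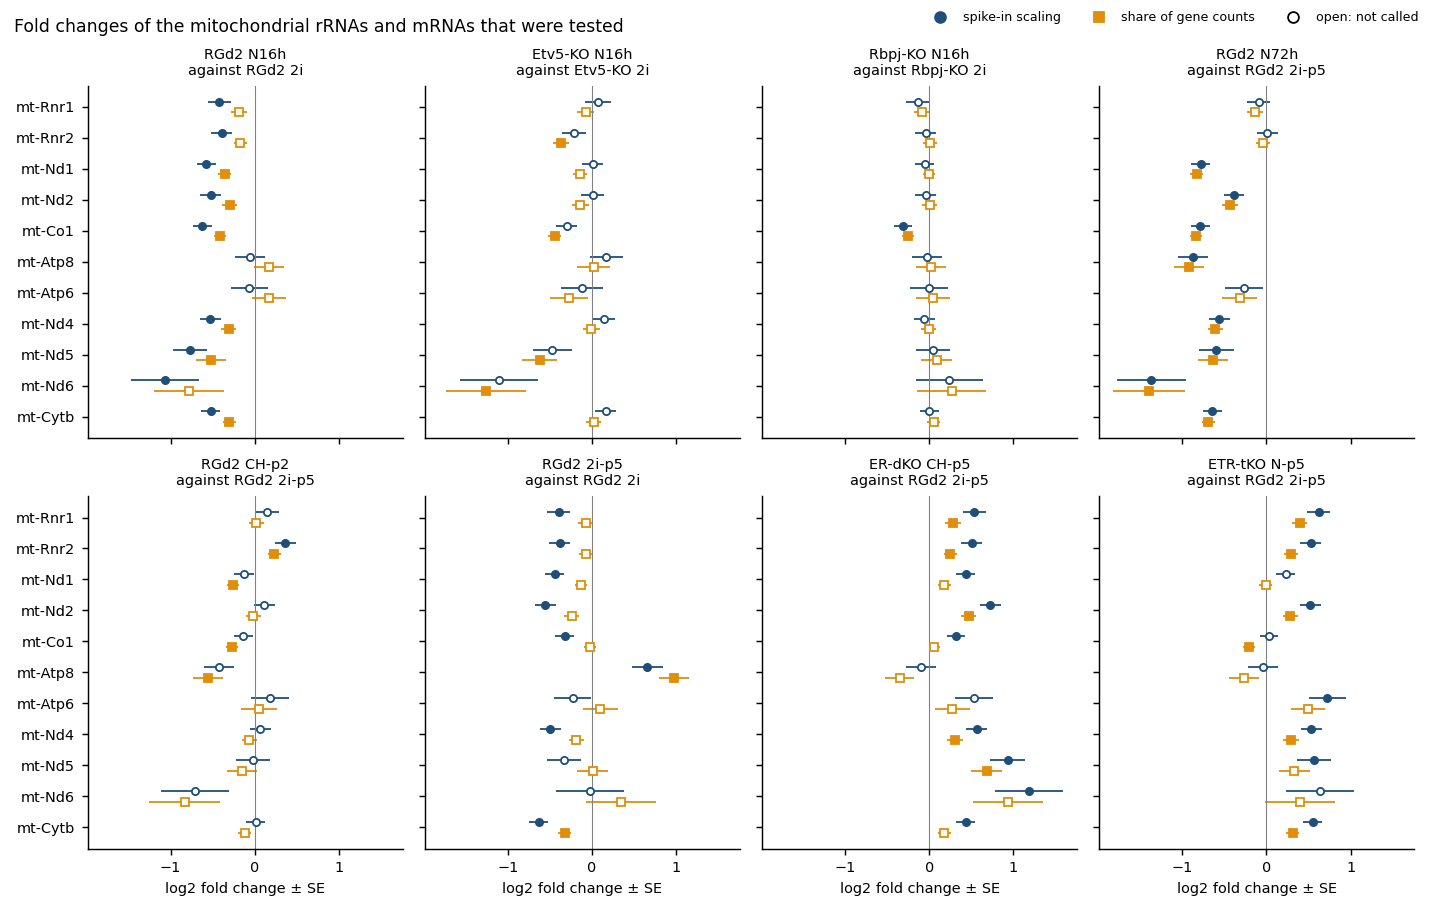
log2 fold change (horizontal, with 1 SE) of 11 mitochondrial rRNAs and mRNAs in 8 comparisons on the spike-in scale (blue circles) and the share scale (orange squares), with open symbols where the gene was not called. At N72h mt-Nd1 and mt-Co1 lie at -0.78 and mt-Rnr2 at 0.01 on the spike-in scale.

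Among the tRNAs, mt-Tl1 (a leucine tRNA, between mt-Rnr2 and mt-Nd1), mt-Tq (the glutamine tRNA, of the opposite strand) and mt-Ta (the alanine tRNA) had the largest log2 changes of all members called at N72h. The first pair is printed here, mt-Tl1 at chrM:2676-2750 (plus strand) and mt-Tq at chrM:3772-3842 (minus strand, written as the RNA is read), both from the Gencode transcripts on GRCm38.
mt-Tl1: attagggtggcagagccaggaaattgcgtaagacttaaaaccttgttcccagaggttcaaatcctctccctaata
mt-Tq: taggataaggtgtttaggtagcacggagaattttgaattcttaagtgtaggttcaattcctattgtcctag
mt-Tl1 had 70.7, 74.9 and 81.2 normalised counts at 2i-p5 and 10.4, 18.7 and 9.14 at N72h, from 10, 12 and 15 reads. The groups did not overlap, and the log2 change was -2.68 (SE 0.41, edgeR adjusted p = 5.15e-07) on the spike-in scale and -2.72 on the share scale. mt-Tq had 75.4, 166 and 129.5 and then 28, 12.5 and 28.6, also apart, a log2 change of -2.37 (SE 0.27, edgeR adjusted p = 8.94e-10). mt-Ta had 51.8, 31.6 and 57.6 and then 10.4, 15.6 and 11, a log2 change of -1.96 (SE 0.56). At N16h the picture was weaker. mt-Tl1 had 43, 62.6 and 105 in 2i and 42.2, 43.9 and 46 at N16h, with overlap and a log2 change of -0.53 (SE 0.34, edgeR adjusted p = 0.237). mt-Tq fell by 0.73 (SE 0.24) on the spike-in scale and missed the threshold on the share scale (edgeR adjusted p = 0.0858).

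On leaving 2i, Rbpj-KO and Etv5-KO had 1 and 0 members called lower on the spike-in scale against 11 in RGd2. Of all genes 10.1%, 5.93% and 23.2% fell there, in the same order. By share the counts were 1 and 5 against 6, where 11.5%, 11.3% and 14.6% of all genes fell. Etv5-KO had 2 libraries at N16h. The mean mRNA share fell without overlap in both mutants, from 1.39% to 1.27% in Rbpj-KO and from 1.68% to 1.3% in Etv5-KO. Per spike-in count the mRNA sums overlapped in both mutants. In Rbpj-KO, 1 of 24 genes fell at N16h on the spike-in scale (10.1% of all genes fell) and 1 on the share scale (11.5%), in both cases mt-Co1. It had 248730, 222022 and 222306 normalised counts in 2i and 182971, 187118 and 189885 at N16h, without overlap, a log2 change of -0.31 (SE 0.11, edgeR adjusted p = 0.037). mt-Nd1 and mt-Cytb stood at -0.05 (SE 0.11) and 0.00 (SE 0.11). The call of mt-Co1 on the spike-in scale was lost with the clonal line as a block (edgeR adjusted p = 0.0543), and no member was called without Rbpj-KO 2i replicate 30 or without Rbpj-KO N16h replicate 20 or 21, whereas 2 were called without Rbpj-KO 2i replicate 29. By share, there were 3 without Rbpj-KO 2i replicate 28 and 2 without Rbpj-KO N16h replicate 19.

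In Etv5-KO no member passed on the spike-in scale in edgeR, where 19.6% of all genes rose and 5.93% fell. 4 members had an unadjusted p under 0.05, and DESeq2 called 1. By share, 5 fell, mt-Rnr2, mt-Co1, mt-Nd5, mt-Nd6 and mt-Tp, where 11.3% of all genes fell. mt-Co1 had 10318, 10586 and 9780 CPM in Etv5-KO 2i and 7333 and 7702 at N16h. Its log2 change was -0.44 (SE 0.08, edgeR adjusted p = 3.55e-05) on the share scale and -0.30 (SE 0.12, edgeR adjusted p = 0.0564) on the spike-in scale, and that of mt-Cytb was 0.02 and 0.16. With the clonal line as a block 3 members fell on the share scale. Without single libraries the counts there were 2 (Etv5-KO 2i replicate 25), 3 (Etv5-KO 2i replicate 26) and 1 (Etv5-KO N16h replicate 17), and on the spike-in scale 1, 3 and 2 (Etv5-KO 2i replicates 26 and 27 and Etv5-KO N16h replicate 18).

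The difference between the N16h responses was tested directly. For Rbpj-KO against RGd2 no member passed in edgeR on the spike-in scale, where 2.44% of all genes had a higher and 0.154% a lower response. 7 members had an unadjusted p under 0.05, and DESeq2 called 2. mt-Nd1 and mt-Cytb came nearest, with differences in log2 change of 0.53 (SE 0.16, edgeR adjusted p = 0.0613) and 0.52 (SE 0.16, edgeR adjusted p = 0.0606), and 9 members passed without RGd2 2i replicate 33. By share, none passed in edgeR (1.78% of all genes higher and 0.667% lower), 5 had an unadjusted p under 0.05 and DESeq2 called 2. There 1 passed without RGd2 2i replicate 33 and 1 without Rbpj-KO 2i replicate 29. For Etv5-KO against RGd2, 4 members passed on the spike-in scale, all higher: mt-Nd1 by 0.58 (SE 0.17), mt-Nd2 by 0.53 (SE 0.18), mt-Nd4 by 0.67 (SE 0.18) and mt-Cytb by 0.68 (SE 0.17). On that scale 23.8% of all genes passed in this direction, and the median of all genes was 0.47. By share, with a median of 0.09, none passed in edgeR (6.86% of all genes higher and 1.79% lower), 2 members had an unadjusted p under 0.05 and DESeq2 called 1. Without Etv5-KO N16h replicate 18, 1 member passed on the spike-in scale.

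mt-Nd5 (chrM:11742-13565, plus strand) and mt-Nd6 (chrM:13552-14070, minus strand), complex I subunits whose genes overlap at their ends on opposite strands and were counted by strand, rose in Rbpj-KO at N16h against RGd2 at N16h. They were 2 of 24 members on the spike-in scale, where 11.7% of all genes rose, and 2 on the share scale, where 10.5% did. mt-Nd6 had 2228, 2091 and 2244 normalised counts in RGd2 and 6255, 7846 and 7335 in Rbpj-KO. The log2 difference was 1.71 (SE 0.41, edgeR adjusted p = 0.00217) on the spike-in scale and 1.60 (SE 0.42, edgeR adjusted p = 0.0058) on the share scale. mt-Nd5 had 21613, 19475 and 21396 and then 30435, 37768 and 38297, a log2 difference of 0.77 (SE 0.21, edgeR adjusted p = 0.00614) and 0.66 on the share scale. Neither gene's groups overlapped. mt-Co1, mt-Cytb and both rRNAs had log2 differences of at most 0.10 in size between the same groups on either scale. mt-Nd6 made up 2.14% ± 0.183 of the mRNA counts in Rbpj-KO and 0.731% ± 0.0381 in RGd2 (exact permutation p = 0.1, adjusted p = 0.4).

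In 2i the Rbpj-KO lines were not alike in mt-Nd6, which had 1868, 8858 and 7355 normalised counts in lines c28, c33 and c36, against 6255, 7846 and 7335 in the same lines at N16h. The low library had 13394552 gene counts, the others 29487830 and 32347193. RGd2 in 2i was also spread widely, with 7845, 4395 and 1280, the last in replicate 33. In Etv5-KO, mt-Nd6 had 10559, 11398 and 4432 in 2i (lines c16, c17 and c1) and 2291 and 5909 at N16h (c17 and c1). Line c17 was thus the highest in 2i and the lower at N16h. mt-Nd5 took the same order, with 53171, 54907 and 32631 in 2i and 25426 and 42247 at N16h. Both genes were higher in Etv5-KO 2i than in RGd2 2i on the share scale, by 0.58 (SE 0.18, edgeR adjusted p = 0.0162) and 1.15 (SE 0.41, edgeR adjusted p = 0.0381), 2 of 24 members where 9.03% of all genes rose. Their groups overlapped. With the clonal line as a block 1 of them remained called, and none without RGd2 2i replicate 33, Etv5-KO 2i replicate 25 or Etv5-KO 2i replicate 26. On the spike-in scale neither passed (edgeR adjusted p = 0.143 and 0.0743). There 1 member fell, mt-Cytb by 0.32 (SE 0.11), where 17.1% of all genes fell, and with the clonal line as a block it missed the threshold (edgeR adjusted p = 0.0504). Without RGd2 2i replicate 33, 5 members were called on that scale, and 2 without RGd2 2i replicate 31 or Etv5-KO 2i replicate 27.

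**Figure D4:**
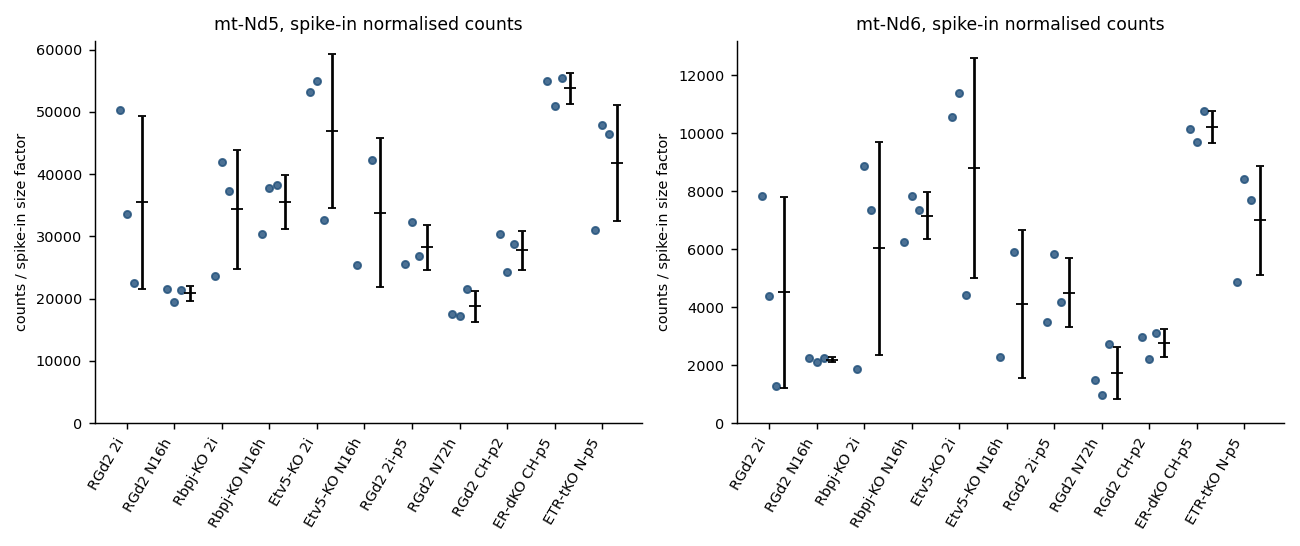
Normalised counts of mt-Nd5 (left) and mt-Nd6 (right) by condition, with 1 point per library and a bar at the mean with its SD. For mt-Nd6 the 3 Rbpj-KO N16h libraries lie at 6255 to 7846 and the 3 RGd2 N16h libraries at 2091 to 2244, while the groups in 2i are spread widely.

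In 2i, Rbpj-KO was lower than RGd2 in mt-Cytb, 1 of 24 members where 3.74% of all genes fell. It had 33730, 28173 and 24573 normalised counts in RGd2 and 19085, 20653 and 21677 in Rbpj-KO, without overlap, a log2 difference of -0.49 (SE 0.11, edgeR adjusted p = 0.00207). By share, mt-Nd1, mt-Co1 and mt-Nd4 fell beside it, by 0.27, 0.24 and 0.30, 4 of 24 members where 4.18% of all genes fell. Fitted with only the libraries compared, mt-Cytb missed the threshold and no member was called on the spike-in scale, and without RGd2 2i replicate 33 there were 8. By share, 1 was called without RGd2 2i replicate 32 and 2 without Rbpj-KO 2i replicate 28 or 29.

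Etv5-KO at N16h was higher than RGd2 at N16h in 5 of 24 members on the spike-in scale, where 18.2% of all genes rose: mt-Rnr1, mt-Tw, mt-Nd4, mt-Nd5 and mt-Cytb. On the share scale mt-Rnr1 was the 1 member that rose (11.4% of all genes). mt-Rnr1 had 214862, 208692 and 230599 normalised counts in RGd2 and 279697 and 350542 in Etv5-KO, without overlap, a log2 difference of 0.53 (SE 0.15, edgeR adjusted p = 0.00755) and 0.32 (SE 0.10, edgeR adjusted p = 0.0198) on the share scale. mt-Rnr2, of the same precursor, differed by 0.00 (SE 0.14) and by -0.21 (SE 0.09, edgeR adjusted p = 0.109) on the share scale. These calls rested on single libraries. Without Etv5-KO N16h replicate 18 no member was called on the spike-in scale, without replicate 17 there were 8, and without RGd2 N16h replicate 22 or 23 there were 3. mt-Tw lost its call with the clonal line as a block (edgeR adjusted p = 0.122). By share, no member was called with that block or without RGd2 N16h replicate 22, and 2 without Etv5-KO N16h replicate 17.

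The ratio of the rRNAs needs no scaling between libraries. Both rRNAs are levels left after depletion, and the part of depletion in the ratio was not tested. Counts on mt-Rnr2 were 8.53 and 8.75 times those on mt-Rnr1 in Etv5-KO at N16h, the lowest values of all libraries. The ratio was 10.5, 10.1 and 11.1 in Etv5-KO 2i, 11.6, 12 and 13.7 in RGd2 2i and 13.7, 11.6 and 12.1 in RGd2 N16h. Etv5-KO thus lay below RGd2 without overlap in 2i (exact permutation p = 0.1, adjusted p = 0.48) and at N16h (exact permutation p = 0.2, adjusted p = 0.48). ER-dKO and ETR-tKO, which also lack Etv5, had ratios of 12.1 ± 0.569 and 11.5 ± 0.113 and overlapped the 12.4 ± 1.03 at 2i-p5.

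**Figure D5:**
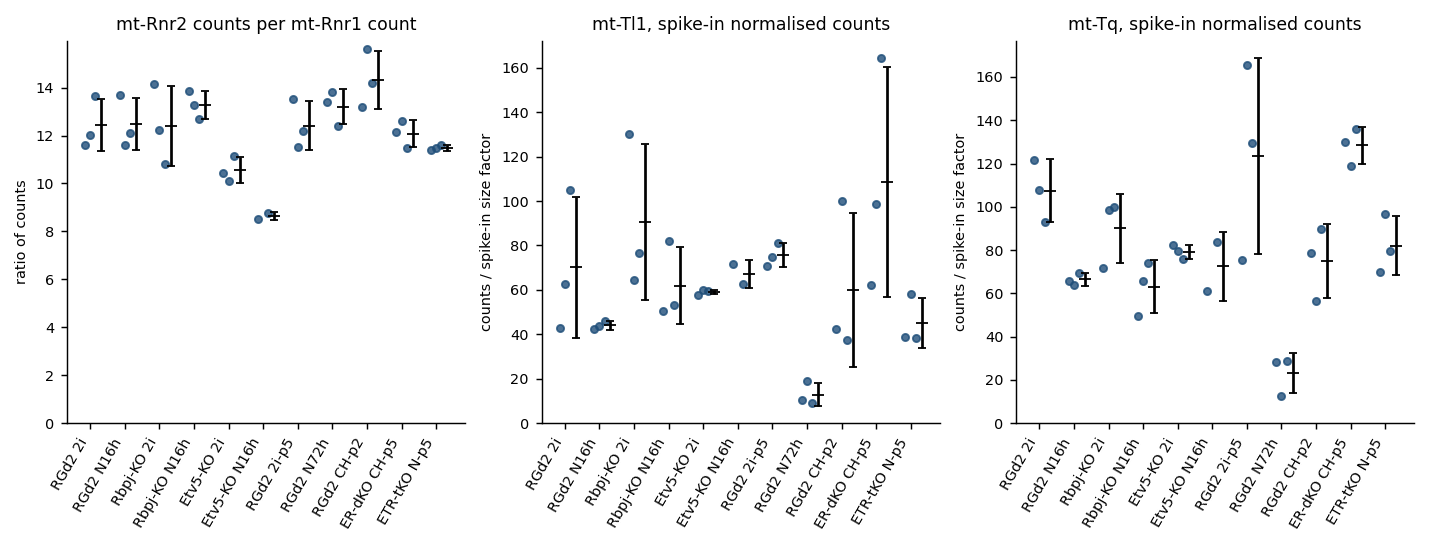
Counts on mt-Rnr2 per count on mt-Rnr1 (left) and normalised counts of mt-Tl1 (middle) and mt-Tq (right) by condition, with 1 point per library and a bar at the mean with its SD. The ratio is lowest in Etv5-KO at N16h, and mt-Tl1 and mt-Tq are lowest at N72h.

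In ER-dKO cells the rRNAs and most of the well counted mRNAs were higher than in RGd2 at 2i-p5. On the spike-in scale 10 of 24 members rose, where 20.8% of all genes rose: mt-Rnr1, mt-Rnr2, mt-Nd1, mt-Nd2, mt-Tw, mt-Co1, mt-Nd4, mt-Nd5, mt-Nd6 and mt-Cytb. The median log2 difference was 0.52 over the members and 0.20 over all genes. By share, with a median of -0.04 over all genes, 6 rose (11.1% of all genes): mt-Rnr1, mt-Rnr2, mt-Nd2, mt-Tw, mt-Nd4 and mt-Nd5. mt-Nd2, a complex I subunit, had 20457, 20972 and 20945 normalised counts at 2i-p5 and 34908, 32945 and 35245 in ER-dKO, a log2 difference of 0.72 (SE 0.12, edgeR adjusted p = 1.3e-05) and 0.47 (SE 0.09) on the share scale. mt-Nd5 had 25491, 32320 and 26827 and then 54910, 50962 and 55491, a log2 difference of 0.93 (SE 0.21) and 0.68 on the share scale. mt-Tw, the tryptophan tRNA, had 84.8, 121 and 97.7 and then 159.5, 204 and 276, a log2 difference of 1.06 (SE 0.23). In each of the 3 genes the groups were clear of each other. mt-Nd6 had 3481, 5814 and 4184 and then 10154, 9696 and 10778, without overlap, a log2 difference of 1.18 (SE 0.40, edgeR adjusted p = 0.0211) and 0.94 (SE 0.41, edgeR adjusted p = 0.0803) on the share scale. mt-Co1 and mt-Cytb rose by 0.32 and 0.43 on the spike-in scale and stood at 0.06 and 0.18 on the share scale (edgeR adjusted p = 0.539 and 0.071). mt-Atp8 stood at -0.10 and -0.35. mt-Atp6, at 0.53, passed with the clonal line as a block (edgeR adjusted p = 0.0235 against 0.0636 without it).

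In ETR-tKO cells the rRNAs rose and the mRNAs split. Of 24 members, 7 rose on the spike-in scale (23.6% of all genes), mt-Rnr1, mt-Rnr2, mt-Nd2, mt-Atp6, mt-Nd4, mt-Nd5 and mt-Cytb, and 1 fell (5.96% of all genes), mt-Tq. By share, 5 rose (15.5% of all genes), mt-Rnr1, mt-Rnr2, mt-Nd2, mt-Nd4 and mt-Cytb, and 4 fell (15.2%), mt-Tl1, mt-Tq, mt-Tm and mt-Co1. mt-Rnr1 had 183688, 243994 and 239463 normalised counts at 2i-p5 and 315037, 340186 and 372908 in ETR-tKO, a log2 difference of 0.62 (SE 0.14, edgeR adjusted p = 0.000335) and 0.40 (SE 0.09) on the share scale. mt-Cytb had 18049, 18236 and 19556 and then 21572, 29103 and 31126, a log2 difference of 0.55 (SE 0.11) and 0.31 on the share scale. The normalised counts did not overlap in either gene. mt-Co1 had 10018, 9222 and 10321 CPM at 2i-p5 and 7159, 9115 and 9339 in ETR-tKO, with overlap, a log2 difference of -0.21 (SE 0.07, edgeR adjusted p = 0.0192) on the share scale and 0.03 (SE 0.11, edgeR adjusted p = 0.842) on the spike-in scale. mt-Nd6 had 4848, 8425 and 7687 normalised counts, which overlapped 2i-p5, with a log2 difference of 0.63 (SE 0.40, edgeR adjusted p = 0.215). The first of the 3 lines, labelled with ETc1 where the others share Tc1, was the lowest in mt-Nd1, mt-Nd2, mt-Co1, mt-Nd4, mt-Nd5, mt-Nd6 and mt-Cytb.

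RGd2 cells in CH alone were higher than 2i-p5 in mt-Rnr2. On the spike-in scale 1 of 24 members rose (18.3% of all genes) and 2 fell (8.65%), and on the share scale 1 rose (16.2%) and 6 fell (15.6%). mt-Rnr2 had 2484740, 2808270 and 2920860 normalised counts at 2i-p5 and 3592930, 3582410 and 3353350 in CH-p2, without overlap, a log2 difference of 0.36 (SE 0.12, edgeR adjusted p = 0.0209) and 0.23 (SE 0.08, edgeR adjusted p = 0.0212) on the share scale. mt-Tp (the proline tRNA) and mt-Tq fell on the spike-in scale by 1.14 (SE 0.43) and 0.77 (SE 0.25). By share, mt-Nd1 fell by 0.26 (SE 0.07) and mt-Co1 by 0.27 (SE 0.07), and mt-Atp8 and mt-Ta fell too. With the clonal line as a block, mt-Atp8 and mt-Ta also passed on the spike-in scale (edgeR adjusted p = 0.0347 and 0.0437). No member was called on that scale without CH-p2 replicate 5, and 1 without 2i-p5 replicate 1.

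The RGd2 cultures in 2i differed from each other, mainly on the spike-in scale. Against cells moved from CH with LIF into 2i for 48 h, 1 of 24 members was higher at 2i-p5 (1.77% of all genes) and 8 were lower (30.2%), and the median of all genes was -0.37. By share, with a median of -0.05, 1 was higher (7.36%) and 1 lower (8.76%). The one that rose on both was mt-Atp8, with 3336, 3312 and 1764 normalised counts in 2i and 4239, 4645 and 4521 at 2i-p5. The groups did not overlap, and the log2 difference was 0.66 (SE 0.18, edgeR adjusted p = 0.00428) and 0.97 (SE 0.18, edgeR adjusted p = 0.000205) on the share scale. Without RGd2 2i replicate 33 it was 0.43 on the spike-in scale and still past the threshold. The gene stood at 194, 193 and 198 CPM at 2i-p5, and every other library lay lower. mt-Cytb fell on both scales, by 0.63 (SE 0.11) and 0.32 (SE 0.08). The full set that fell on the spike-in scale was mt-Rnr1, mt-Rnr2, mt-Nd1, mt-Nd2, mt-Co1, mt-Nd4, mt-Cytb and mt-Tt. mt-Co1, among them at -0.33, stood at -0.02 on the share scale and changed sign with TMM scaling. mt-Tt, the threonine tRNA, with 1, 3 and 1 reads at 2i-p5, lost its call with the clonal line as a block (edgeR adjusted p = 0.0556). In all 5 members were called without RGd2 2i replicate 31, RGd2 2i replicate 32 or 2i-p5 replicate 1, and in the first case mt-Rnr1, mt-Rnr2, mt-Co1 and mt-Tt were not among them.

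The nuclear genes for the same complexes were read beside the members. All 75 listed nuclear OXPHOS subunits were tested. Of all genes tested, 23.2% fell and 5.37% rose at N16h on the spike-in scale and 14.6% and 14.2% on the share scale. At N72h 14.8% fell and 22.2% rose on the spike-in scale and 18.4% and 23.1% on the share scale. In ER-dKO 5.16% fell and 20.8% rose on the spike-in scale and 14.7% and 11.1% by share, and in ETR-tKO 5.96% and 23.6%, and 15.2% and 15.5% by share. At N16h in RGd2, 45 fell on the spike-in scale (median log2 change -0.33), and 23 fell and 2 rose on the share scale. Without RGd2 2i replicate 31, 29 were called on the spike-in scale. Among those that fell were Atp5c1 by 0.65 and Atp5g3 by 0.56 (ATP synthase), Cox5a by 0.62 (complex IV) and Ndufb4 by 0.56 (complex I). At N72h 31 fell and 3 rose on the spike-in scale, and 35 fell and 4 rose on the share scale, Uqcr10 (complex III) and Ndufb4 by 1.07 and 0.96 on the former. In ER-dKO 5 rose and 4 fell on the spike-in scale. By share, 1 rose and 34 fell. In ETR-tKO 3 rose and 14 fell, and 1 and 37 on the share scale. The median nuclear subunit in these groups lay at 0.02 and 0.00 on the spike-in scale and at -0.23 and -0.22 on the share scale, while mt-Nd2, mt-Nd4, mt-Rnr1 and mt-Rnr2 rose on both scales. Of 77 nuclear mitoribosomal protein genes tested, 14 fell and 1 rose in RGd2 at N16h on the spike-in scale, and 3 fell and 19 rose on the share scale. In ER-dKO 21 rose and 1 fell on the former, and 1 rose and 17 fell on the latter, so the direction of this list turned with the scale. Mrpl14, of the large subunit, rose by 0.94 (SE 0.14) in ER-dKO and by 0.80 (SE 0.14) in ETR-tKO on the spike-in scale.

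Among nuclear genes for mitochondrial RNA handling, Grsf1, which codes for an RNA-binding protein of the mitochondrial RNA granules, fell on leaving 2i in all 3 genotypes. Its log2 change was -2.26 (SE 0.12, edgeR adjusted p = 3.72e-19) in RGd2 at N16h, -1.62 in Rbpj-KO, -1.79 in Etv5-KO and -2.12 in RGd2 at N72h, and the mean normalised count went from 9944 to 2077 in the first of these. The counts of the lists below stand beside the shares of all genes given above for the same comparison and scale, at N16h 23.2% lower and 5.37% higher on the spike-in scale and 14.6% and 14.2% by share, and in ER-dKO 20.8% and 11.1% higher on the 2 scales. Of 16 genes listed for RNA stability and decay, 7 fell in RGd2 at N16h on the spike-in scale, and 4 fell and 3 rose on the share scale. At N72h 6 fell and 2 rose on the former and 9 fell and 2 rose on the latter. Slirp, whose product binds mitochondrial mRNAs together with Lrpprc, fell by 0.62 (SE 0.13) at N72h on the spike-in scale. Of 24 genes for RNA processing, 8 fell at N16h on the spike-in scale, whereas 6 fell and 7 rose on the share scale. At N72h 6 fell and 5 rose on the spike-in scale. Pus1, which makes pseudouridine in tRNAs, fell by 0.74 at N16h and by 0.49 at N72h. Of 10 genes for transcription, 4 fell at N16h on the spike-in scale, among them Polrmt, the mitochondrial RNA polymerase, by 0.38 (SE 0.12), and 3 at N72h, among them Tefm, its elongation factor, by 0.76 (SE 0.13). Of the same 10, 5 rose in ER-dKO and 5 in ETR-tKO, Tefm by 0.57 and 0.63. By share, 1 fell and 1 rose at N16h, 6 fell at N72h, and 2 rose and 1 fell in ER-dKO. Of 18 genes for mtDNA replication and the nucleoid, 5 fell at N16h on the spike-in scale, whereas 4 fell and 5 rose on the share scale. In ER-dKO 7 rose and 1 fell on the spike-in scale, against 2 and 3 on the share scale. Tfam, which packages mitochondrial DNA and starts its transcription, rose there and in ETR-tKO by 0.67 (SE 0.11) and 0.70 (SE 0.11) on the spike-in scale. Of 12 nuclear regulators tested, 4 fell and 1 rose at N16h on the spike-in scale, and 3 fell and 3 rose on the share scale. Ppargc1b, a coactivator of mitochondrial genes, fell by 1.83, the lysosomal regulator Tfeb by 1.79 and the orphan receptor Esrrb, also a naive marker, by 1.43. The transcription factor Myc rose by 1.55.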

How the data were processed

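RNA was measured in 32 libraries of 11 conditions. Per the labels and the study's methods, the authors extracted total RNA, removed ribosomal RNA with capture probes, made strand-specific libraries with ERCC spike-ins and aligned reads to GRCm38/mm10 with TopHat2 after trimming with Trim Galore. The deposited values were raw counts per gene, from uniquely matching reads assigned by strand with featureCounts against Gencode M14. No file of the authors' own comparisons was used. Samples were grouped by their labels. Libraries held 5986857 to 71439411 gene counts. SDs were between the libraries of a group, and SEs came from edgeR's quasi-likelihood test.

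The members and gene lists were chosen with earlier results of these data known. All 32 libraries entered one edgeR 4.0.16 quasi-likelihood model in R 4.3.3, with size factors from the 52 of 92 spike-ins above 0 in every library. Of 51826 genes, 18892 passed edgeR's filter on low counts, and p-values were adjusted over them by the Benjamini-Hochberg method. A gene was called at an adjusted p under 0.05 and a mean of at least 1 FPKM (computed from the counts) in either group. The share scale used total gene counts as size factors. A further fit used the summed counts of the 13 mitochondrial protein genes. Summed levels were compared by two-sided exact permutation tests in scipy 1.17.1. The tests were checked on simulated counts. Sequences were read from GENCODE M21 transcripts on GRCm38, and windows of 50 bases were searched in 141730 nuclear transcripts.

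The rRNA and protein genes were named one by one or by complex. tRNA genes were named where called without overlap, at most 3 per direction by size, except mt-Tw, mt-Tp, mt-Tt and mt-Tm, which were named where they were called. Nuclear list genes were named where called without overlap, at most 4 per direction and list by size. Alternatives were DESeq2 1.42.0, TMM and other scalings, no filter on low counts, other sets of libraries, the clonal line as a block and leaving out each library.

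Pairing by clonal line follows from the labels, since the same lines were sampled in 2i and at N16h. Deviations from the group means correlated at 0.0724 to 0.177 between libraries of the same RGd2 culture, 0.0318 to 0.109 in Rbpj-KO and 0.00675 to 0.0159 in Etv5-KO. Between different lines they correlated at -0.159 to -0.101 in RGd2, -0.0644 to 0.0207 in Rbpj-KO and -0.0159 to 0.009 in Etv5-KO. With 2 libraries at N16h the Etv5-KO deviations there mirror each other, so the Etv5-KO values cannot show pairing. Replicate numbers are not shared between groups.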

Additional observations from a re-analysis of the deposited data

Results flagged for a closer look

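In 4 mitochondrial mRNAs the change from 2i to N16h differed between Etv5-KO and RGd2 in edgeR's quasi-likelihood test of the difference on the spike-in scale. The Etv5-KO response minus the RGd2 response (log2) was 0.583 for mt-Nd1 (adjusted p = 0.00949), 0.531 for mt-Nd2 (adjusted p = 0.029), 0.666 for mt-Nd4 (adjusted p = 0.00677) and 0.684 for mt-Cytb (adjusted p = 0.00249). All 4 code for subunits of complexes I or III, as do most of the 13 protein genes. They are read in the same direction, as are 12 of those 13. On that scale the median of all genes for this difference was 0.47, and on the share scale, where it was 0.09, none of the 4 passed. On the spike-in scale 23.8% of all genes passed in this direction, as did 4 of the 24 members, and 1 member passed without Etv5-KO N16h replicate 18. Etv5-KO had 2 libraries at N16h.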

How the results depend on the processing

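The count of the 24 mitochondrial genes called moved by over 1.5 times under several settings, in the comparisons below; each value stands beside its comparison, with the value of the report in parentheses, and the cause was not tested. With TMM the count was 6 (11) for RGd2 N16h, 6 (0) for Etv5-KO N16h against its 2i, 6 (3) for CH-p2, 2 (9) for 2i-p5, 4 (1) for Rbpj-KO 2i against RGd2, 3 (1) for Etv5-KO 2i against RGd2, 0 (5) for Etv5-KO N16h against RGd2 and 0 (4) for the Etv5-KO difference in response. There the log2 value changed sign for mt-Co1 at 0.014 (2i-p5). With median-of-ratios factors from the genes the count was 6 (11) for RGd2 N16h, 5 (0) for Etv5-KO N16h against its 2i, 6 (3) for CH-p2, 2 (9) for 2i-p5, 4 (1) for Rbpj-KO 2i against RGd2, 2 (1) for Etv5-KO 2i against RGd2, 1 (5) for Etv5-KO N16h against RGd2 and 0 (4) for the Etv5-KO difference in response. On the share scale the count was 6 (11) for RGd2 N16h, 5 (0) for Etv5-KO N16h against its 2i, 7 (3) for CH-p2, 2 (9) for 2i-p5, 4 (1) for Rbpj-KO 2i against RGd2, 2 (1) for Etv5-KO 2i against RGd2, 1 (5) for Etv5-KO N16h against RGd2, 6 (10) for ER-dKO and 0 (4) for the Etv5-KO difference in response. On gene counts without mitochondrial genes the count was 6 (11) for RGd2 N16h, 5 (0) for Etv5-KO N16h against its 2i, 7 (3) for CH-p2, 2 (9) for 2i-p5, 4 (1) for Rbpj-KO 2i against RGd2, 2 (1) for Etv5-KO 2i against RGd2, 1 (5) for Etv5-KO N16h against RGd2, 2 (0) for the Rbpj-KO difference in response and 0 (4) for the Etv5-KO difference in response. Within the mitochondrial mRNA sum the count was 2 (11) for RGd2 N16h, 0 (1) for Rbpj-KO N16h against its 2i, 5 (0) for Etv5-KO N16h against its 2i, 5 (3) for CH-p2, 2 (9) for 2i-p5, 3 (1) for Etv5-KO 2i against RGd2, 0 (5) for Etv5-KO N16h against RGd2, 4 (10) for ER-dKO and 0 (4) for the Etv5-KO difference in response. There the log2 value changed sign for mt-Nd1 at 0.033, mt-Nd2 at 0.090, mt-Nd4 at 0.089, mt-Cytb at 0.084, mt-Rnr1 at 0.21 and mt-Rnr2 at 0.22 (RGd2 N16h), mt-Nd2 at 0.35, mt-Nd4 at 0.17, mt-Nd5 at 0.14 and mt-Cytb at 0.090 (N72h), mt-Co1 at 0.031 (2i-p5) and mt-Nd1 at -0.0054, mt-Co1 at -0.12 and mt-Cytb at -0.0056 (ER-dKO). With the total spike-in count as factor the count was 0 (1) for Rbpj-KO N16h against its 2i, 4 (1) for Rbpj-KO 2i against RGd2, 2 (1) for Etv5-KO 2i against RGd2 and 1 (0) for the Rbpj-KO difference in response. With DESeq2 the count was 1 (0) for Etv5-KO N16h against its 2i, 3 (1) for Rbpj-KO 2i against RGd2, 2 (1) for Etv5-KO 2i against RGd2 and 2 (0) for the Rbpj-KO difference in response. With DESeq2 on total counts, on the share scale, the count was 1 (2) for Etv5-KO 2i against RGd2, 2 (0) for the Rbpj-KO difference in response and 1 (0) for the Etv5-KO difference in response. Without the low-count filter the count was 2 (1) for Rbpj-KO N16h against its 2i, 4 (0) for Etv5-KO N16h against its 2i, 6 (3) for CH-p2, 4 (1) for Rbpj-KO 2i against RGd2, 3 (1) for Etv5-KO 2i against RGd2 and 4 (0) for the Rbpj-KO difference in response. By share it was 3 (1) for Rbpj-KO N16h against its 2i, 5 (2) for 2i-p5, 7 (4) for Rbpj-KO 2i against RGd2, 5 (2) for Etv5-KO 2i against RGd2, 5 (1) for Etv5-KO N16h against RGd2, 11 (6) for ER-dKO, 14 (9) for ETR-tKO, 6 (0) for the Rbpj-KO difference in response and 4 (0) for the Etv5-KO difference in response. With only the libraries compared the count was 7 (11) for RGd2 N16h, 5 (0) for Etv5-KO N16h against its 2i, 6 (3) for CH-p2, 3 (9) for 2i-p5, 0 (1) for Rbpj-KO 2i against RGd2, 4 (2) for Rbpj-KO N16h against RGd2 and 9 (5) for Etv5-KO N16h against RGd2. With the clonal line as replicate block the count was 0 (1) for Rbpj-KO N16h against its 2i, 5 (3) for CH-p2 and 0 (1) for Etv5-KO 2i against RGd2. By share it was 3 (5) for Etv5-KO N16h against its 2i, 1 (2) for Etv5-KO 2i against RGd2 and 0 (1) for Etv5-KO N16h against RGd2. The summed log2 ratio (share) without the 2 mitochondrial rRNA genes changed sign to -0.237 for CH-p2 (all 0.174), 0.046 for Rbpj-KO N16h against RGd2 (all -0.00734), 0.0843 for Etv5-KO N16h against RGd2 (all -0.135) and -0.0459 for ETR-tKO (all 0.268). The summed log2 ratio (share) of only the 13 protein genes changed sign to -0.236 for CH-p2 (all 0.174), 0.046 for Rbpj-KO N16h against RGd2 (all -0.00734), 0.0842 for Etv5-KO N16h against RGd2 (all -0.135) and -0.0453 for ETR-tKO (all 0.268). The summed log2 ratio (per spike-in count) without the 2 mitochondrial rRNA genes changed sign to -0.11 for CH-p2 (all 0.299). The summed log2 ratio (per spike-in count) of only the 13 protein genes changed sign to -0.11 for CH-p2 (all 0.299). Leaving out each library in turn, the count ran over 6 to 12 (11) for RGd2 N16h, 0 to 2 (1) for Rbpj-KO N16h against its 2i, 0 to 3 (0) for Etv5-KO N16h against its 2i, 0 to 3 (3) for CH-p2, 5 to 11 (9) for 2i-p5, 1 to 8 (1) for Rbpj-KO 2i against RGd2, 1 to 5 (1) for Etv5-KO 2i against RGd2, 0 to 8 (5) for Etv5-KO N16h against RGd2, 0 to 9 (0) for the Rbpj-KO difference in response and 1 to 6 (4) for the Etv5-KO difference in response. By share it ran over 1 to 3 (1) for Rbpj-KO N16h against its 2i, 1 to 4 (5) for Etv5-KO N16h against its 2i, 1 to 6 (4) for Rbpj-KO 2i against RGd2, 0 to 3 (2) for Etv5-KO 2i against RGd2, 0 to 2 (1) for Etv5-KO N16h against RGd2 and 0 to 1 (0) for the Rbpj-KO difference in response. The total (log2 ratio) ran over -0.0824 to 0.0419 (-0.00908) for Rbpj-KO N16h against its 2i (share), -0.146 to 0.000609 (-0.0698) for 2i-p5 (share), -0.0749 to 0.0436 (-0.00734) for Rbpj-KO N16h against RGd2 (share), -0.0625 to 0.0839 (0.0136) for Etv5-KO 2i against RGd2 (share), -0.111 to 0.0441 (-0.0345) for Rbpj-KO N16h against its 2i (per spike-in count), -0.354 to 0.0204 (-0.155) for Etv5-KO N16h against its 2i (per spike-in count) and -0.109 to 0.265 (0.0903) for Etv5-KO N16h against RGd2 (per spike-in count) and so turned its direction without single libraries. For N72h the counts on both scales stayed within 1.5 times under every setting run. These counts join both directions. Within the mitochondrial mRNA sum mt-Nd2 and mt-Nd4 passed as higher at N72h (edgeR adjusted p = 0.000238 and 0.0453). On the spike-in scale the block changed no other call than those named in the report. Low counts kept 13 tRNA genes out of the test on the spike-in scale, and 3 libraries against 3, or 3 against 2, could not bring a permutation p under 0.05 for a sum.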
